A study of Caenorhabditis elegans with 20 samples.

Results

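The 10 genes described here carry out programmed cell death and the clearance of dead cells in the nematode Caenorhabditis elegans. They were picked by symbol, as the 4 genes of the death core (egl-1, ced-9, ced-4 and ced-3) and 6 genes of the engulfment machinery (ced-1, ced-6, ced-7, ced-2, ced-5 and ced-10), out of 46778 genes in the deposited tables. All 10 were found and all 10 were among the 15737 genes with enough reads to test.

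The question was whether the level of these genes differed between 5 strains with different forms of progranulin, a secreted protein that is cut into granulins and is encoded by pgrn-1 in this nematode. Total RNA of day 1 adults was sequenced in 4 libraries per strain: N2 wildtype, the strain CF3050 with pgrn-1(-), called the null below, and strains AWK33, AWK43 and AWK107, which carry granulin 1(+), granulin 2(+) and granulin 3(+) respectively. All 3 granulin strains also carry pgrn-1(-), the animals were synchronised by egg lay and none had a further treatment. Each granulin came in 1 strain, the sources used here do not name the promoter that drives it, and the labels name no separate cultures for the libraries of a strain. The p-values therefore measure only how these samples vary, and that variation may be technical. Sample names begin with a letter, E to H in the null and in granulin 2 and A to D in the other strains, and the labels do not explain it. Differences between those sets of strains cannot be told apart from any batch the letters stand for.

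In this nematode the small protein EGL-1 binds CED-9, a relative of human BCL2, which then releases CED-4, a relative of APAF1, and CED-4 activates the caspase CED-3. Dying cells are taken up through a pair of partly redundant routes, one through the receptor CED-1 with CED-7 and the adaptor CED-6, the other through CED-2, CED-5 and CED-12 to the small GTPase CED-10, a Rac protein. In adult hermaphrodites the cells that undergo programmed death are chiefly germ cells, which the sheath cells of the gonad engulf. The part of egl-1 in those deaths was not tested here. Loss of pgrn-1 has been linked in published work to faster removal of dead cells, and whether this holds for adult germ cells was not tested here.

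Libraries held 48279370 to 128776517 reads. The targeted gene followed the labels in every library, with 527 to 871 reads of pgrn-1 in wild type, 6 to 32 in the null and at least 7283 in every granulin library. In 6 libraries (null replicate 1, granulin 1 replicate 3, granulin 2 replicates 2 and 3 and granulin 3 replicates 2 and 3) levels relative to each gene's mean over the 20 libraries declined with transcript length. Their slopes were -0.82 to -0.22 log2 units per doubling of exon length, against -0.008 to 0.29 in the other 14. The slopes are relative, so those of the 14 depend in part on the 6. These 6 are called the low-slope libraries below. In 4 libraries over 20% of reads came from ribosomal RNA genes, namely granulin 2 replicate 3 (52.7%), wild type replicate 4 (44.8%), granulin 1 replicate 3 (25.9%) and granulin 2 replicate 4. The samples are whole animals, so for every gene fewer cells of a type and less RNA per cell cannot be told apart. Markers of sperm, oocytes, germline, intestine, hypodermis, neurons, muscle and gonadal sheath were read in every strain, and none of the sperm, oocyte, germline or sheath markers was at 0 in all 4 libraries of a strain. A list of 10 embryo genes summed to 278.8 to 666.5 CPM in wild type, 274.4 to 575 in the null and 83.2 to 540.2 in granulin 1. The sums were 215 to 613.3 CPM in granulin 2 and 236.1 to 461 in granulin 3. Of these genes med-1 was at 0 in all 4 wild-type libraries, and med-1 and hlh-27 in all 4 null libraries. The part of embryo RNA in the level of any gene was not tested.

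Across the 5 strains the death and engulfment genes differed little against the spread between libraries. No gene of the 10 passed the test for any difference among the strains (limma, moderated F test with Benjamini-Hochberg adjustment, adjusted p from 0.117 for egl-1 to 0.971 for ced-5), where 21.5% of all genes tested did. Before adjustment egl-1 alone of the 10 passed 0.05 in that F test, and voom, a weighted form of the same fit, called 0. Of the 100 differences between pairs of strains, 1 passed at an adjusted p of 0.05, namely egl-1 in granulin 2 against the null, and 99 did not. Most of the 100, 75, were smaller than their own standard error, and 6 had an unadjusted p under 0.05. Standard errors ran from 0.28 on the log2 scale for ced-10 to 1.02 for ced-3, so the data limit ced-10 far more tightly than ced-3.

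**Figure D1:**
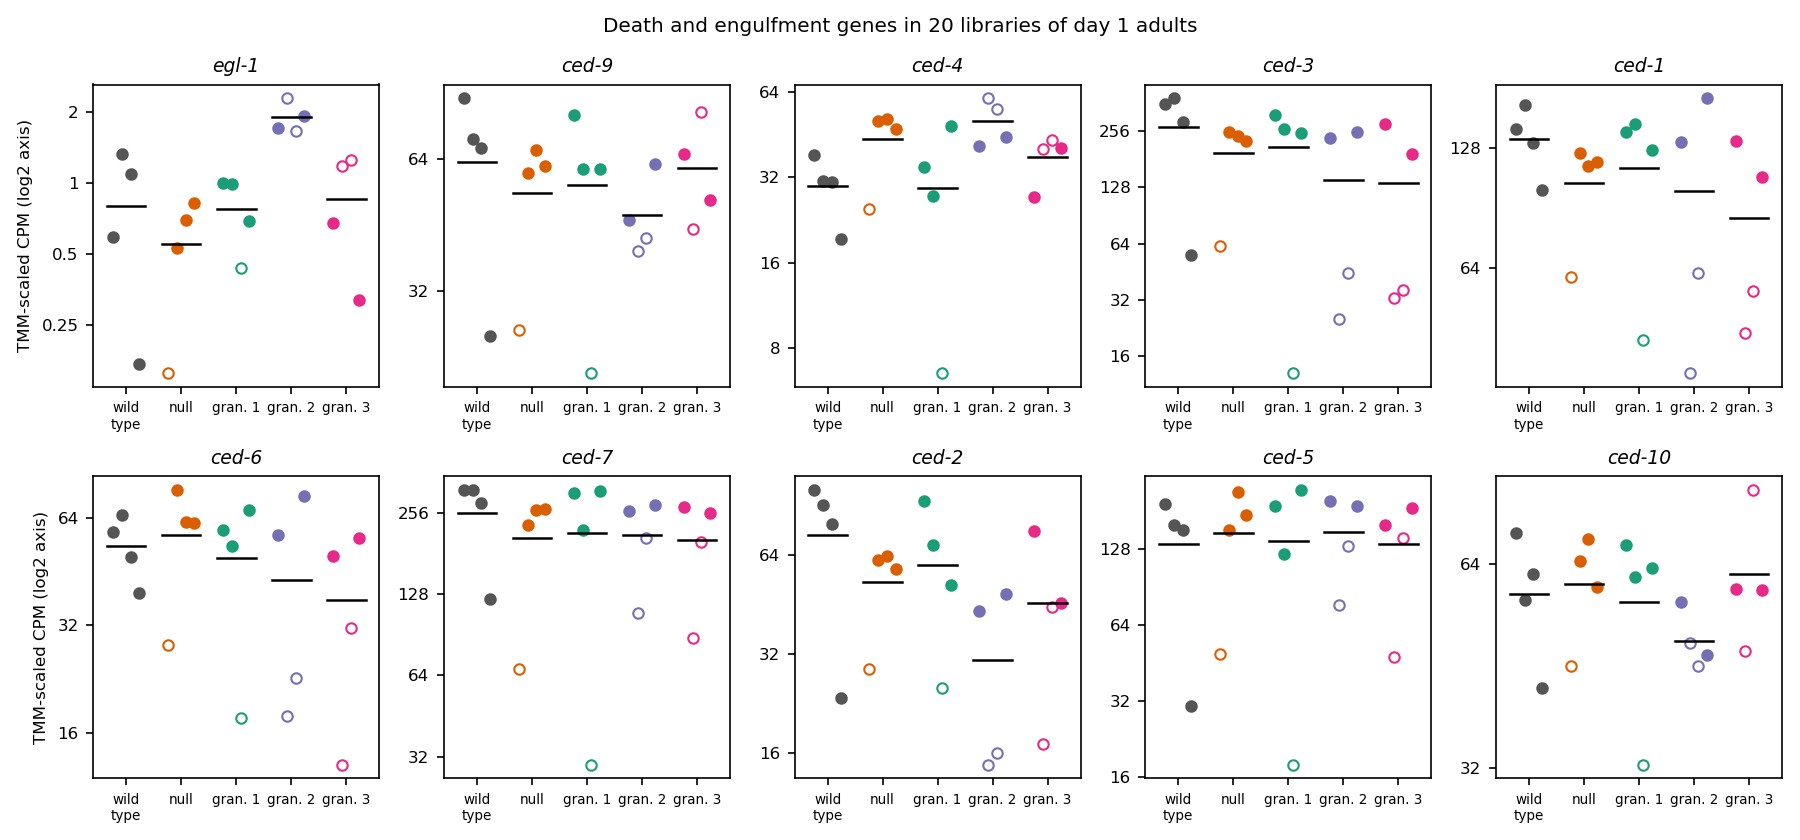
Level of each gene in each of the 20 libraries, as CPM (log2 axis), by strain; points are libraries in replicate order, black lines are strain means and open points are the 6 low-slope libraries. The 4 granulin 2 libraries lie above all others for egl-1, and the open points are the lowest or near the lowest of their strain for ced-3, ced-1, ced-6 and ced-2.

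Levels are in CPM, the reads of a gene relative to the library's total after scaling between libraries. Per kilobase of exon, the caspase gene ced-3 had the highest strain mean of the 10 and the trigger egl-1 the lowest in every strain. In granulin 2 and granulin 3 ced-3 exceeded the gene next to it in the order in only 2 of 4 libraries. In wild type the level was 106.3 ± 58.7 CPM per kilobase for ced-3 and 67.7 ± 31.8 for ced-2 (SD, n = 4). The levels of ced-9 (49.1 ± 20.8), ced-7 (45.1 ± 15.9), ced-10 (34.8 ± 7.31) and ced-6 (31.6 ± 6.66) followed. Lower still were ced-1 (27.6 ± 5.47), ced-5 (23.8 ± 12.6) and ced-4 (15.5 ± 4.10), all in CPM per kilobase (SD, n = 4). The range of each of these ced genes over the 4 wild-type libraries overlapped that of the next. Within libraries, ced-3 was above ced-2, ced-2 above ced-9 and ced-6 above ced-1 in 4 of 4, ced-1 was above ced-5 in 2 of 4, and the other neighbours among them kept their order in 3 of 4. The range of egl-1 lay below that of ced-4, at 1.43 ± 0.93 CPM per kilobase, with its highest wild-type library at 2.39 and the lowest ced-4 library at 9.996.

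The trigger gene egl-1 encodes the BH3-only protein that starts the death programme (WBGene00001170, chromosome V, 14431308 to 14432359, minus strand, ce11, 559 bases of exon). Its reads were few, 4 to 340 per library. In wild type it had 0.589, 1.34, 1.09 and 0.169 CPM in replicates 1 to 4, from 29, 60, 54 and 4 reads. In the null it had 0.156, 0.532, 0.695 and 0.820 CPM, from 14, 25, 35 and 50 reads. Wild type and the null overlapped over most of their range, and in each a single library was far below the rest. The 95% Poisson interval of the 4 reads in wild type replicate 4 is 1.09 to 10.2 reads, and that of the 14 reads in null replicate 1 is 7.65 to 23.5, both for counting error only.

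In granulin 1 egl-1 had 1.00, 0.992, 0.434 and 0.689 CPM, and in granulin 3 it had 0.679, 1.18, 1.25 and 0.317 CPM. Both strains lay within the wild-type range. In granulin 2 it had 1.72, 2.30, 1.67 and 1.93 CPM, from 76 to 340 reads. Every granulin 2 library was above every library of the other 4 strains. In the 2 low-slope libraries of granulin 2, egl-1 had 2.30 and 1.67 CPM, in the other 2 it had 1.72 and 1.93.

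Against the null, egl-1 rose in granulin 2 by 1.93 ± 0.57 on the log2 scale (SE, 95% interval 0.74 to 3.12, 3.82-fold; limma, Benjamini-Hochberg adjusted p = 0.0179), and these strains have the same letters. It was the only call among the 10 genes in this comparison, in which 21.7% of all genes passed, 17.5% higher and 4.19% lower, so 1 in 10 is no more than the background. Libraries of both strains did not overlap for 1 of the 10 genes, egl-1, against 30.3% of all genes. Without null replicate 1, a low-slope library, the difference was 1.45 and not called (adjusted p = 0.0809). Without all 6 low-slope libraries it was 1.42 (adjusted p = 0.108), and on the deposited scale without scaling between libraries it was 1.72 (adjusted p = 0.091).

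The next 3 comparisons of egl-1 share the granulin 2 libraries. Against wild type the granulin 2 difference was 1.54 ± 0.57 (95% interval 0.35 to 2.73, adjusted p = 0.0683), against granulin 1 it was 1.32 ± 0.57 (0.13 to 2.51, adjusted p = 0.123), and granulin 3 minus granulin 2 was -1.29 ± 0.57 (-2.48 to -0.10, adjusted p = 0.208; limma). These 3 were not called, although the libraries did not overlap in any of them. The null minus wild type was -0.39 ± 0.57, granulin 1 minus null 0.62 ± 0.57 and granulin 3 minus null 0.64 ± 0.57, with adjusted p of 0.911, 0.862 and 0.533. The last turned to -0.49 without the low-slope libraries.

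Sperm markers moved with egl-1 in granulin 2. All 25 tested genes of a list of 26 were higher in granulin 2 than in the null, with a median log2 difference of 3.99. Their summed level ran from 168.8 to 408.5 CPM over the granulin 2 libraries and from 31.4 to 289.5 over those of granulin 3. It ran from 14.7 to 47.5 CPM in granulin 1, from 8.53 to 30.3 in the null and from 5.26 to 14.6 in wild type. Every granulin 3 library was above every null library in sperm markers, while the egl-1 levels of these strains overlapped. Of 12 hypodermis markers 6 were also higher in granulin 2 than in the null (median log2 difference 1.41), with sums of 462.5 to 1438 CPM against 409 to 891. Of 12 neuron markers 4 were higher and 1 lower (median 0.69), with sums of 163.8 to 281 CPM against 143 to 174. Of all genes 17.5% were higher in that comparison and 4.19% lower. All markers of both lists had reads in every library of these strains. Ribosomal RNA took 6.3% to 52.7% of reads in granulin 2 and 4.8% to 14.5% in the null. The part of any of these in the egl-1 difference, or in the differences of csp-2, ces-2, csp-1, pat-2 and unc-73 below, was not tested.

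The gene next to egl-1, F23B12.1, was chosen for mention after its values were seen. It lies on the plus strand 897 bases from egl-1 (chromosome V, 14429165 to 14430410), so that the 3′ ends of the pair face each other. It had at least 35 reads in every granulin 2 library and 13 to 89 in granulin 3. In wild type it had 0 to 2 reads, in the null 0 to 4 and in granulin 1 0 to 12. By limma, granulin 2 minus null was 3.88 ± 0.64 (adjusted p = 1.14e-04) and granulin 3 minus null was 2.34 ± 0.64 (adjusted p = 0.0187). Granulin 3 was also called against wild type (2.63 ± 0.64, adjusted p = 0.0074) and granulin 1 (2.54 ± 0.64, adjusted p = 0.0239). For egl-1 no granulin 3 difference was called. How the counting treated strand is not stated in the sources used here, so reads that run past the end of one gene into the other cannot be told apart from its own.

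The inhibitor ced-9 (WBGene00000423, chromosome III, 10335172 to 10337522, plus strand) encodes the protein that EGL-1 displaces. It averaged 63.1 ± 26.7 CPM in wild type, 53.6 ± 18.6 in the null, 55.8 ± 25.1 in granulin 1, 47.7 ± 10.3 in granulin 2 and 61.0 ± 16.6 in granulin 3 (SD, n = 4). All 5 strains overlapped, and the 3 lowest libraries, between 20.8 and 26.1 CPM, came from 3 different strains. Its log2 differences ran from -0.29 (95% interval -1.19 to 0.62) for granulin 2 minus wild type to 0.34 (-0.57 to 1.25) for granulin 3 minus granulin 2, with adjusted p of at least 0.737. The gene is transcribed in an operon with mev-1, which encodes a subunit of succinate dehydrogenase, and over the 20 libraries their log2 levels had r = 0.16. In granulin 2 against wild type mev-1 was lower, with a log2 difference of -1.18 ± 0.37 (adjusted p = 0.0292), where ced-9 was not called. The 2 low-slope granulin 2 libraries had 25.6 and 53.5 CPM of mev-1 and the other 2 had 80.9 and 86.9, against 118 to 131 in wild type.

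The activator ced-4 (WBGene00000418, chromosome III, 4852325 to 4855171, plus strand) encodes the protein that turns on the caspase. In wild type it had 38.5, 31.02, 30.8 and 19.3 CPM, and in the null 24.7, 50.4, 51.5 and 47.3 CPM. In granulin 2 it had 41.3, 60.8, 55.6 and 44.4 CPM. All granulin 2 libraries were above all wild-type libraries, and 3 of 4 null libraries were above wild type as well.

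In granulin 1 ced-4 had 34.7, 27.5, 6.53 and 48.7 CPM and in granulin 3 27.2, 40.2, 43.2 and 40.6 CPM. The lowest value of all 20 was the low-slope library of granulin 1. Granulin 2 minus wild type was 0.78 ± 0.45 (95% interval -0.15 to 1.72, adjusted p = 0.285), granulin 2 minus granulin 1 was 1.09 ± 0.45 (0.15 to 2.02, adjusted p = 0.103) and null minus wild type was 0.52 ± 0.45 (-0.41 to 1.46, adjusted p = 0.788). Granulin 2 minus null, within the same letters, was 0.26 ± 0.45 (-0.68 to 1.19). None of these was called. The gap to granulin 1 was called without granulin 1 replicate 4 (1.44, adjusted p = 0.0309) and was 0.27 without the low-slope libraries (adjusted p = 0.549).

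The caspase gene ced-3 (WBGene00000417, chromosome IV, 13198261 to 13204137, minus strand) had the largest standard error of a log2 difference among the 10, 1.02. In wild type it had 357, 385, 287 and 55.3 CPM. In the null it had 62.1, 254, 243 and 228 CPM, and in granulin 1 314, 265, 12.9 and 251 CPM. In each of these strains 3 libraries were within a narrow band and 1 was several times lower.

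In granulin 2 ced-3 had 235.1, 25.3, 44.5 and 253.5 CPM, and in granulin 3 279, 32.6, 36.03 and 193.5 CPM. In these strains the libraries split 2 and 2. Over all strains ced-3 was at 12.9 to 62.1 CPM in the 6 low-slope libraries, at 55.3 in wild type replicate 4 and at 193.5 to 385 in the other 13. Granulin 2 minus wild type was -1.26 ± 1.02 and granulin 3 minus wild type was -1.28 ± 1.02 (95% interval of the latter -3.40 to 0.85), neither called. Without the low-slope libraries both had the opposite sign, at 0.19 and 0.11. That fit kept wild type replicate 4, at 55.3 CPM. The other wild-type libraries, at 287 to 385 CPM, were all above the granulin 2 and granulin 3 libraries left, at 193.5 to 279. The sign without wild type replicate 4 as well was not tested.

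Oocyte markers moved with ced-3. Summed over 19 oocyte and eggshell genes, all with reads in every library, levels were 3291 to 6937 CPM in the low-slope libraries, 8033 in wild type replicate 4 and 16710 to 29260 in the other 13. A list of 18 germline genes gave 757 to 2296, 3084 and 4035 to 6632 CPM in the same order. The gene whose pattern was most like that of ced-3 was mex-5, one of the oocyte list and a regulator of maternal proteins (Pearson r = 0.997 of log2 levels over 20 libraries, 0.99 over the 14 others). Whether oocyte RNA, transcript length or another property of these libraries sets the ced-3 level was not tested.

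**Figure D2:**
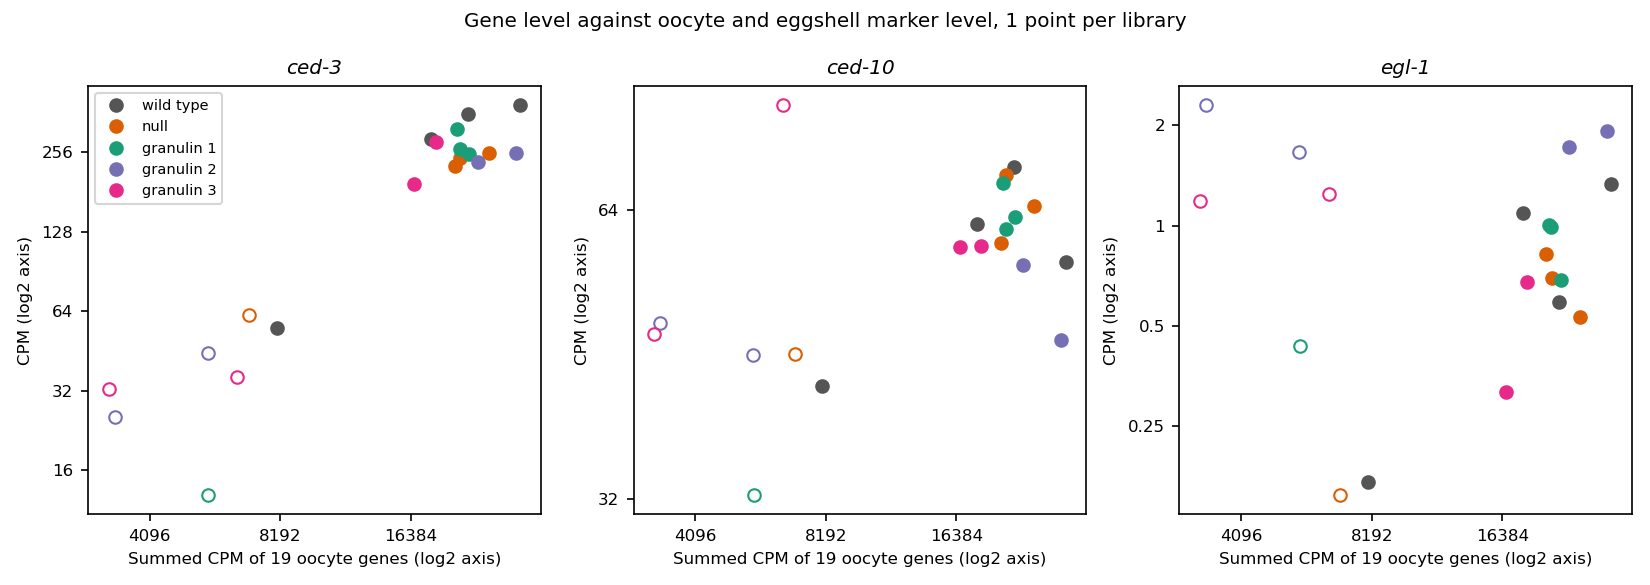
Level of ced-3, ced-10 and egl-1 (CPM, log2 axes) against the summed level of 19 oocyte and eggshell genes in the same library; each point is 1 of 20 libraries, coloured by strain, and open points are the 6 low-slope libraries. Libraries with 3291 to 8033 CPM of oocyte markers have 12.9 to 62.1 CPM of ced-3, and the 4 granulin 2 libraries are highest for egl-1 at both ends of the oocyte range.

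The engulfment receptor gene ced-1 (WBGene00000415, chromosome I, minus strand) had 134.8 ± 26.6 CPM in wild type, 104.8 ± 29.4 in the null, 114 ± 48.5 in granulin 1, 100.1 ± 62.4 in granulin 2 and 85.6 ± 42.5 in granulin 3 (SD, n = 4). Strains overlapped, and the 6 low-slope libraries, at 35.0 to 62.2 CPM, were all below the other 14, at 100.3 to 170.5. The largest difference was granulin 3 minus wild type, -0.78 ± 0.50 (95% interval -1.82 to 0.27, adjusted p = 0.441). Granulin 2 minus wild type was -0.66, and 0.20 without the low-slope libraries.

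The adaptor gene ced-6 (WBGene00000420, chromosome III, 5595771 to 5598061, plus strand) encodes the partner of the CED-1 tail. It had 53.4 ± 11.3 CPM in wild type, 57.5 ± 20.7 in the null, 49.4 ± 22.1 in granulin 1, 43.0 ± 27.1 in granulin 2 and 37.7 ± 19.6 in granulin 3 (SD, n = 4). Again the low-slope libraries, at 13 to 31.4 CPM, lay below all others, at 39.5 to 77.1. Granulin 3 minus null was -0.72 ± 0.53 (95% interval -1.82 to 0.38, adjusted p = 0.439) and granulin 2 minus null -0.57 ± 0.53, which was -0.01 without the low-slope libraries. Its exons overlap wdr-37 on the other strand by 83 bases, so some reads of that stretch are uncertain.

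The ABC transporter gene ced-7 (WBGene00000421, chromosome III, 9570390 to 9580089, minus strand), which acts with ced-1, had 257 ± 90.7 CPM in wild type, 207 ± 94.0 in the null, 216 ± 130.8 in granulin 1, 213 ± 75.4 in granulin 2 and 204 ± 83.2 in granulin 3 (SD, n = 4). The means of the 4 pgrn-1(-) strains lay between 204 and 216 CPM, and each strain had a library well below its others. Differences ran from -0.61 (95% interval -1.97 to 0.76) for granulin 1 minus wild type to 0.34 (-1.02 to 1.71) for granulin 2 minus granulin 1, with adjusted p of at least 0.798. It overlaps C48B4.13 on the other strand by 71 bases, a gene with at most 77 reads.

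In the second route, ced-2 (WBGene00000416, chromosome IV, 1597318 to 1601621, plus strand) encodes an SH2 and SH3 adaptor related to CRKII. In wild type it had 101.5, 91.5, 79.6 and 23.6 CPM, and in the null 28.9, 62.2, 63.6 and 58.3 CPM. In granulin 2 it had 43.4, 14.8, 15.98 and 48.8 CPM. The granulin 2 libraries were below 3 of 4 wild-type and 3 of 4 null libraries, and overlapped both strains through the lowest library of each.

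In granulin 1 ced-2 had 93.6, 68.7, 25.2 and 52.1 CPM and in granulin 3 76.2, 17.1, 44.6 and 45.8 CPM. Granulin 2 minus wild type was -1.28 ± 0.55 (95% interval -2.43 to -0.13, adjusted p = 0.128), and minus granulin 1 it was -1.02 ± 0.55 (-2.17 to 0.13, adjusted p = 0.236). Granulin 2 minus null was -0.93 ± 0.55 (-2.09 to 0.22, adjusted p = 0.271). None was called. Without wild type replicate 4 the first was -1.77 and called (adjusted p = 0.0228), and without the low-slope libraries it was -0.47 (adjusted p = 0.503).

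The gene ced-5 (WBGene00000419, chromosome IV, 10484110 to 10492913, plus strand) encodes a DOCK180 relative that activates Rac. It had 134 ± 71.2 CPM in wild type, 149 ± 71.4 in the null, 138 ± 89.8 in granulin 1, 149.6 ± 56.6 in granulin 2 and 134 ± 60.1 in granulin 3 (SD, n = 4). Strain means were close and spreads wide, with differences from -0.41 (95% interval -1.94 to 1.12) for granulin 1 minus null to 0.52 (-1.01 to 2.04) for granulin 2 minus granulin 1. It overlaps tax-6 on the other strand by 45 bases.

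The Rac gene ced-10 (WBGene00000424, chromosome IV, 3506328 to 3509527, minus strand), on which the second route ends, was the steadiest of the 10. It had 57.8 ± 12.14 CPM in wild type, 59.6 ± 10.5 in the null, 56.2 ± 16.2 in granulin 1, 49.3 ± 4.81 in granulin 2 and 61.8 ± 14.6 in granulin 3 (SD, n = 4). All strains overlapped. Its 10 differences lay between -0.26 (95% interval -0.85 to 0.32) for granulin 2 minus null and 0.30 (-0.28 to 0.89) for granulin 3 minus granulin 2, and no interval reached 1 on the log2 scale in either direction.

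**Figure D3:**
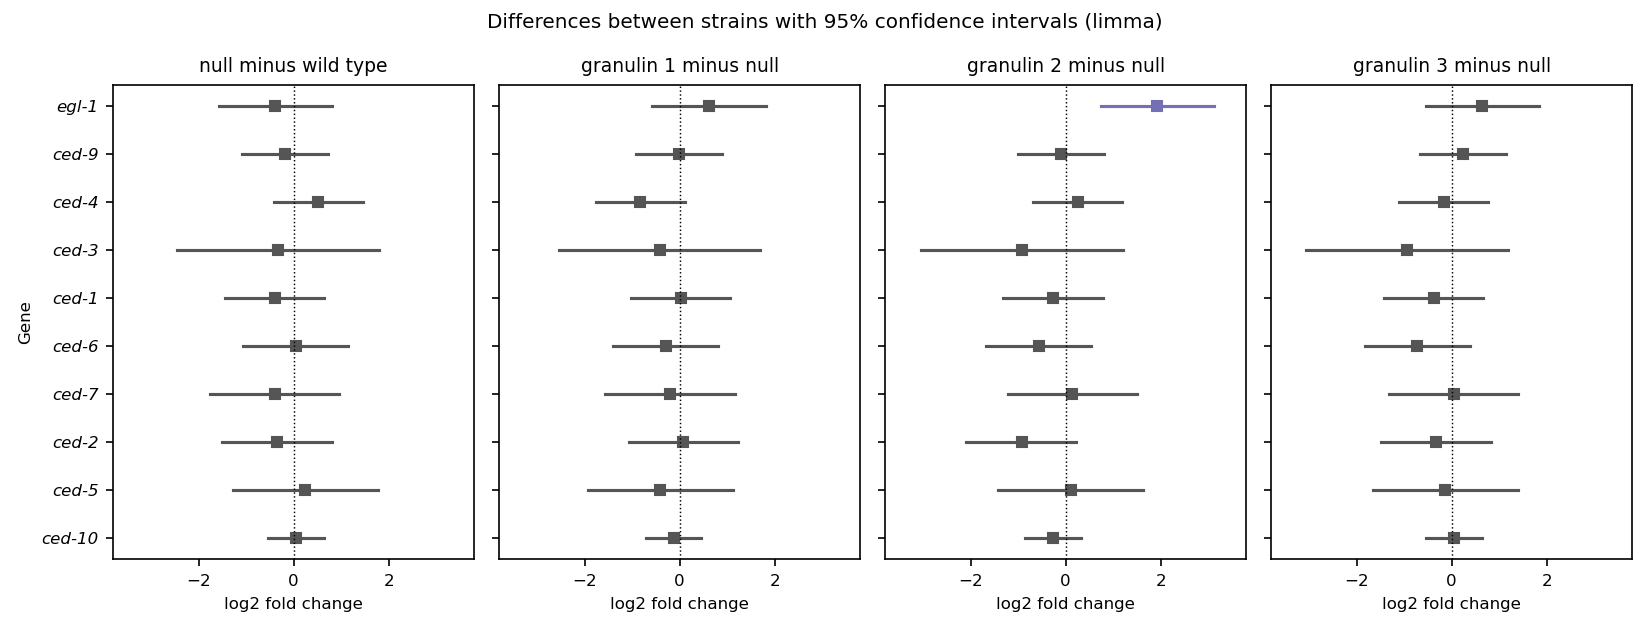
Log2 fold change with its 95% confidence interval from limma (bars) for the 10 genes in 4 comparisons: null minus wild type and each granulin strain minus the null, n = 4 libraries per strain. Of the 40 intervals only that of egl-1 in granulin 2, from 0.74 to 3.12, belongs to a called difference; the intervals of ced-3 are the widest and those of ced-10 the narrowest.

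Read by comparison, the loss of pgrn-1 gave 0 calls among the 10 genes (limma, 0 also at an unadjusted p of 0.05, 0 with voom), where 0.197% of all genes were called, and a median log2 difference of -0.26 for the 10 against 0.00 for all genes. Granulin 1 minus null gave 0 calls (0 unadjusted, 0 with voom) against 0.47%, with a median of -0.16 against 0.04. Granulin 2 minus null gave a median of -0.18 against 0.04 beside its 1 call. Granulin 3 minus null gave 0 calls (0 unadjusted, 0 with voom) against 12.7% of all genes (11.2% higher, 1.57% lower), with a median of -0.15 against 0.07. These comparisons share the null libraries, among them the low-slope null replicate 1.

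Against wild type, granulin 1 gave 0 calls (0 unadjusted, 0 with voom; 0.324% of all genes), granulin 2 gave 0 (2 unadjusted, 0 with voom; 18.4%) and granulin 3 gave 0 (0 unadjusted, 0 with voom; 11.2%) by limma. Medians of the 10 were -0.26, -0.27 and -0.16 against 0.01, 0.00 and 0.03 for all genes. Between granulin strains, granulin 2 minus 1 gave 0 (2 unadjusted, 0 with voom; 18.9% of all genes), granulin 3 minus 1 gave 0 (0 unadjusted, 0 with voom; 5.58%) and granulin 3 minus 2 gave 0 (1 unadjusted, 0 with voom; 5.39%). Medians of the 10 there were -0.11, 0.10 and -0.11, against 0.07, 0.04 and -0.08 for all genes.

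Libraries did not overlap for egl-1 and ced-4 in granulin 2 against wild type, where this held for 21.6% of all genes, and for egl-1 in granulin 2 against granulin 1 (19.6%) and in granulin 3 against granulin 2 (13.3%). In the other comparisons none of the 10 genes was free of overlap. The background there was 10.4% for null minus wild type, 4.55% and 22.2% for granulin 1 and 3 minus null, 4.15% and 15.1% for granulin 1 and 3 minus wild type, and 8.04% for granulin 3 minus 1.

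The 10 genes did not all follow the same pattern over libraries. Between the low-slope libraries and the other 14 the mean log2 level differed by -2.91 for ced-3, by -1.49 to -1.31 for ced-6, ced-2, ced-1, ced-7 and ced-5, and by -0.63 for ced-9. It differed by -0.30 for ced-10, -0.23 for ced-4 and 0.17 for egl-1. For ced-4 and egl-1 these means join deviations in both directions. Of the 6 low-slope libraries, 2 for ced-4 and 3 for egl-1 were below the mean log2 level of their strain's other libraries. The low-slope libraries ran from 6.53 to 60.8 CPM for ced-4 and from 0.156 to 2.30 for egl-1. The 20 libraries differ in depth and length trend. Over all 20, the highest correlation between members was that of ced-3 with ced-1 (r = 0.95, 0.71 over the 14 libraries). The lowest over all 20 was that of egl-1 with ced-6 (r = -0.04, 0.49 over the 14).

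For each gene the single protein-coding gene most like it was found among 14860 by the Pearson r of log2 levels over the 20 libraries. These were T16G12.12 for egl-1 (r = 0.878), supr-1 for ced-9 (0.982), ruvb-2 for ced-4 (0.969), smg-6 for ced-1 (0.988) and T19H12.2 for ced-6 (0.988). For ced-7 it was unc-40 (0.991), for ced-2 C24D10.4 (0.989), for ced-5 mct-5 (0.982) and for ced-10 cnep-1 (0.944). Over the 20 libraries the egl-1 match was the weakest of the 10, and egl-1 also had the fewest reads. Over the 14 libraries that were not low-slope, r was 0.83 for ced-1 and its match. It was 0.91 to 0.98 for the other pairs listed here. No 2 of the 10 genes shared a closest match.

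Beyond the 10, 67 genes were listed in 4 groups around the pathway, and 63 had enough reads to test. Those without were ces-1, ced-13, csp-3 and ttr-52, with at most 30 reads in a library. In granulin 2 against the null 5 of the 63 were higher and 3 lower, where 17.5% of all genes were higher and 4.19% lower. In granulin 3 against the null 1 was higher and 2 lower, beside 11.2% and 1.57% of all genes. Against wild type 5 passed in granulin 2 and 1 in granulin 3, all higher, beside 18.4% and 11.2% of all genes called in either direction (limma). In granulin 2 against granulin 1, 5 were higher and 1 lower (18.9% of all genes called), and in granulin 3 against granulin 2, 3 were lower (5.39%). None passed in null against wild type (6 before adjustment), in granulin 1 against the null (4) or against wild type (2), or in granulin 3 against granulin 1 (4), and voom called 0 in each of these. The median log2 difference of the 63 was -0.34 in granulin 2 minus null and -0.27 in granulin 3 minus null, against 0.04 and 0.07 for all genes.

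Among 20 tested genes of death control, csp-2, ces-2 and csp-1 were higher in granulin 2 than in each of null, wild type and granulin 1. Against the null, 3 of 20 higher is no more than the 17.5% of all genes. The caspase-like gene csp-2 (WBGene00000820, chromosome IV) had 765 to 1315 reads in granulin 2, or 24.96, 8.88, 10.8 and 19.1 CPM. Wild-type libraries had 5 to 7 reads, null libraries 6 to 18, granulin 1 libraries 19 to 48 and granulin 3 libraries 14 to 117. Granulin 2 stood far above the other strains, by 6.34 ± 0.48 on the log2 scale against the null (adjusted p = 3.08e-08) and by 6.32 ± 0.48 against wild type (adjusted p = 3.76e-08). Granulin 3 minus granulin 2 was -5.11 ± 0.48 (adjusted p = 1.06e-06), and granulin 3 minus null was 1.23 ± 0.48 and not called (adjusted p = 0.109). Within granulin 3, csp-2 had 0.849, 0.206, 0.151 and 0.843 CPM in libraries where sperm markers summed to 135.1, 31.4, 59.5 and 289.5 CPM. The part of sperm RNA in the csp-2 differences was not tested.

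The bZIP transcription factor gene ces-2, known for its part in the death of a neurosecretory sister cell, had 9.22, 6.29, 5.61 and 3.86 CPM in granulin 2. It had 1.06, 1.17, 0.814 and 0.640 CPM in the null and 0.678 to 2.72 CPM in wild type. Granulin 2 did not overlap either strain, and it was higher than the null by 2.69 ± 0.52 (adjusted p = 0.00051). The caspase gene csp-1 had 1.40, 0.729, 1.89 and 1.31 CPM in granulin 2 and 0.278 to 0.427 CPM in the null, a difference of 1.71 ± 0.36 (adjusted p = 0.00114). Its call against granulin 1 (1.05 ± 0.36, adjusted p = 0.0433) was lost without any of 6 single libraries, granulin 1 replicates 1, 2 and 3 and granulin 2 replicates 1, 3 and 4. The checkpoint gene hus-1, named after its values were seen, was lower in granulin 2 than in the null (-1.11 ± 0.32, limma adjusted p = 0.0152).

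Among 15 other engulfment genes, pat-2 and unc-73 passed. The integrin alpha subunit gene pat-2 had 32.8, 26.7, 49.99 and 27.4 CPM in granulin 2 and 34.3, 21.1, 19.6 and 57.2 CPM in granulin 3. It had 12.4, 11.7, 9.77 and 12.3 CPM in the null, below every library of both strains. It was higher than the null by 1.52 ± 0.34 in granulin 2 (adjusted p = 0.0022) and by 1.38 ± 0.34 in granulin 3 (adjusted p = 0.00973, lost without null replicate 2, adjusted p = 0.0631). Wild type, at 13.7 to 25.7 CPM, was also above every null library, and granulin 1 had 11.97 to 25.8 CPM. Null minus wild type was -0.54 ± 0.34 and not called (limma, adjusted p = 0.645). Granulin 3 minus wild type was 0.84 ± 0.34 and not called (adjusted p = 0.147). Granulin 2 minus wild type was 0.99 ± 0.34 and only just passed (adjusted p = 0.0499). It did not pass with a prior count of 0.5 (adjusted p = 0.0506), among other settings. The gene pat-2 overlaps F54F2.9 on the other strand by 41 bases. Its known site is muscle, and summed muscle markers were 1733 to 4275 CPM in the null, 2347 to 5609 in granulin 2 and 1034 to 5048 in granulin 3, with all 10 markers read in every library; their part was not tested.

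The gene unc-73, which encodes a guanine nucleotide exchange factor of Rac, had 243.6, 41.9, 110.3 and 304.9 CPM in granulin 2 and 24.8, 54.9, 51.1 and 50.3 CPM in the null. One low-slope granulin 2 library was below most null libraries and the others were above. The difference was 1.65 ± 0.54 (adjusted p = 0.0313). The call was lost without any 1 null library or without granulin 2 replicate 1 or 4 (adjusted p 0.051 to 0.129). Without the low-slope libraries it was 2.41 (adjusted p = 5.11e-06).

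Of 21 genes of corpse maturation and DNA degradation, crn-6, a relative of DNase II, was higher than wild type in granulin 2 (1.61 ± 0.37, adjusted p = 0.00309) and granulin 3 (2.06 ± 0.37, adjusted p = 0.000583). It had 0.870 to 2.27 CPM in wild type, 3.37 to 5.62 in granulin 2 and 4.79 to 8.42 in granulin 3. It had 2.40 to 7.62 CPM in the null and 2.53 to 5.14 in granulin 1, so no pgrn-1(-) strain overlapped wild type. By limma, null minus wild type was 1.39 ± 0.37 (adjusted p = 0.193) and granulin 1 minus wild type 1.21 ± 0.37 (adjusted p = 0.261), neither called. Granulin 2 and 3 minus null were 0.22 and 0.67, neither called (adjusted p = 0.763 and 0.288). The nuclease gene crn-5 had 9.77 to 15.1 CPM in granulin 3 and 24.3 to 38.4 in the null, where it was lower in granulin 3 by limma (-1.21 ± 0.30, adjusted p = 0.0107). On the deposited scale the call was lost (-0.84, adjusted p = 0.285). Wild type had 12.9 to 23.1 CPM of crn-5, below every null library. By limma, null minus wild type was 0.86 ± 0.30 (adjusted p = 0.336) and granulin 3 minus wild type -0.36 ± 0.30 (adjusted p = 0.595), neither called. Lower in granulin 2 than in the null were cyn-13 (-0.82 ± 0.27, adjusted p = 0.0311) and the nuclease gene nuc-1 (-0.99 ± 0.35, adjusted p = 0.0491), both named after their values were seen.

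Among 7 tested genes of phosphatidylserine exposure, psr-1, the gene of a receptor for that lipid, had 84.4, 79.2, 81.9 and 78.2 CPM in the null. It had 46.4, 41.6, 46.9 and 46.2 CPM in wild type and 37.5, 44.2, 40.7 and 50.7 CPM in granulin 3. The null libraries lay in a narrow band above every library of the other 4 strains. Granulin 3 minus null was -0.91 ± 0.28 and called (adjusted p = 0.0385), while null minus wild type was 0.84 ± 0.28 and not called (adjusted p = 0.304). The call was lost without null replicate 1, 3 or 4 or granulin 3 replicate 1, 2 or 3 (adjusted p 0.0585 to 0.115) and on the deposited scale (-0.54, adjusted p = 0.556). The gene overlaps col-111 on the other strand by 60 bases.

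**Figure D4:**
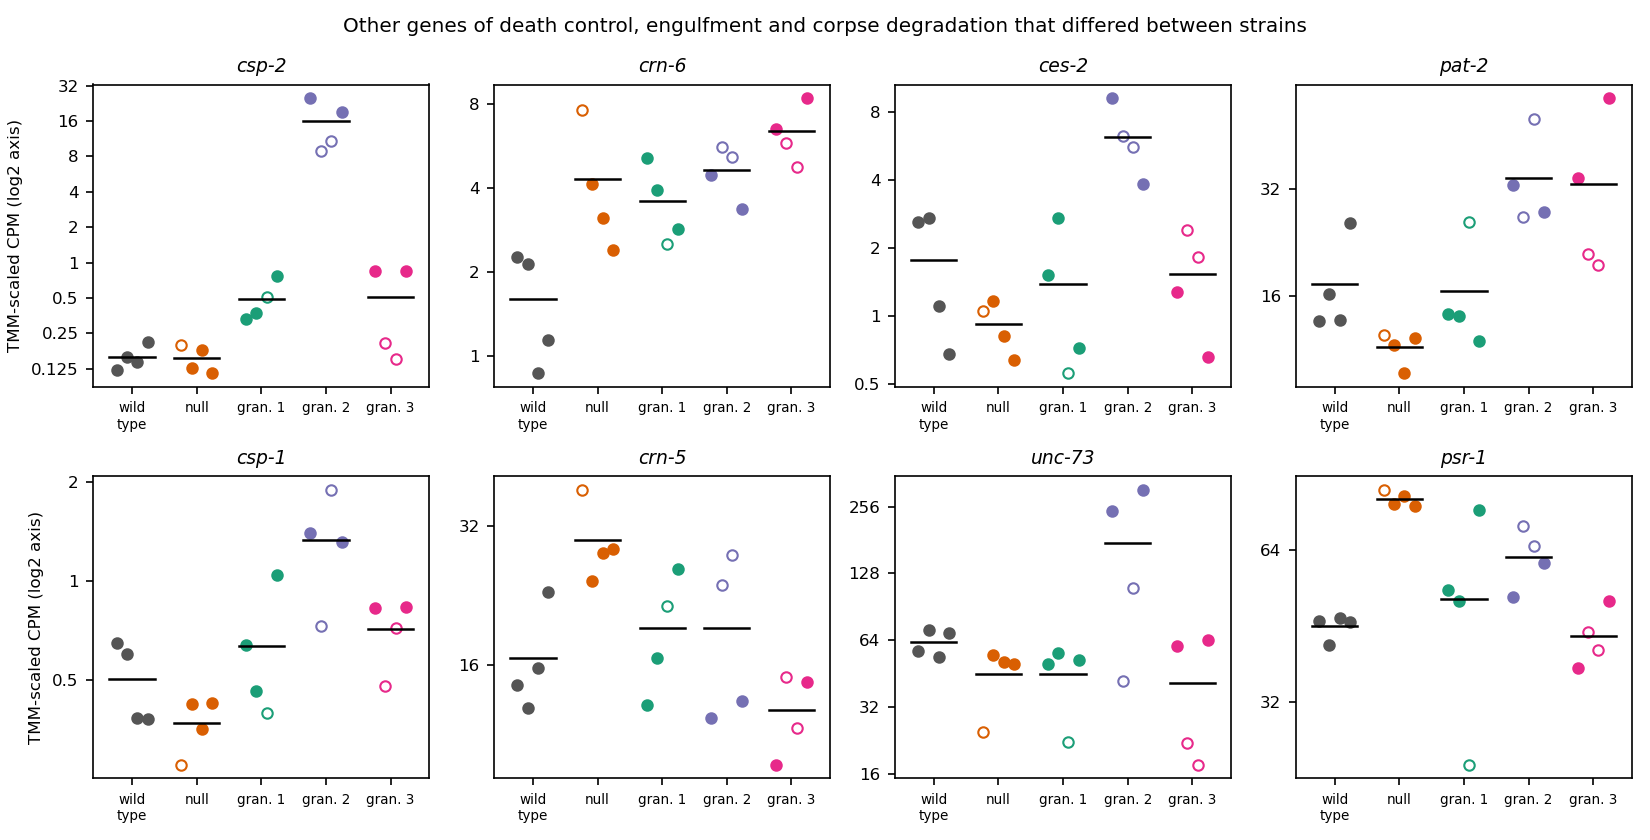
Level (CPM, log2 axis) of 8 other genes of death control, engulfment and corpse degradation in each library, by strain; points are libraries, black lines are strain means and open points are the 6 low-slope libraries. In csp-2 and ces-2 all 4 granulin 2 libraries lie above every other library, and in psr-1 the 4 null libraries do.

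Markers of the gonadal sheath, the cells that engulf dying germ cells, were summed over 6 genes, all with reads in every library. Granulin 2 libraries had sums of 14.7 to 57.6 CPM and granulin 3 libraries 14.4 to 50.8. Wild-type libraries had 15.1 to 21.01 CPM, null libraries 12.3 to 17.4 and granulin 1 libraries 13.96 to 21.9. One of the 6 was higher than the null in granulin 2 and 1 in granulin 3, where 17.5% and 11.2% of all genes were higher. These counts are near the background. No engulfment gene of the 10 was called in any comparison.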

How the data were processed

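The authors deposited 1 table of log2 CPM values per library. The submitters' processing notes name STAR, HTSeq, edgeR, limma and the build ce11, without versions or settings. Whole reads were recovered from the steps between the deposited log2 values (tolerance 0.01 reads). Groups follow the strain label, since the other label gives AWK33 for all 3 granulin strains. Replicate numbers follow accession order. Symbols, lengths and coordinates are from Ensembl release 115.

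Count tests were not run, since the authors' files hold log2 values; limma 3.58.1 in R 4.3.3 (trend and robust moderation) was run on log2 CPM (prior count 2), which understates the change of low genes. Libraries were scaled by trimmed means of M values (30% and 5%). Genes needed 15 reads over all libraries and 0.177 CPM in 4 or more. All 20 libraries entered 1 fit, with Benjamini-Hochberg adjustment over 15737 genes and a threshold of 0.05. The method was tested on simulated data for granulin 2 minus null, run on 15557 genes. There 28% of 50 genes changed 2-fold and 98% of 50 changed 4-fold were called. These rates hold for the simulated spread only and were not measured at the spread of the genes described here. Standard errors of the latter ran from 0.28 to 1.02. For ced-3, with the largest, the 95% interval of granulin 2 minus null was -3.05 to 1.20, which includes a 4-fold lower level. Replicates all differed by more than sampling noise (chi-square divided by its degrees of freedom was at least 146 for every pair).

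The 10 genes and the lists were chosen with earlier results of these data known. All 10 were described. Of the 67 other genes 11 passed the threshold in any comparison. The 8 with the smallest p of the F test were named by rule, and the other 3 after their values were seen. The 4 lists were death control, phosphatidylserine exposure, other engulfment genes and corpse degradation. Alternatives were other size factors, the deposited scale, no filter, a prior count of 0.5, voom, only the strains compared, each library left out and the letter as a block. Chosen after seeing the data were leaving out the low-slope libraries, the length slope as a covariate and library quality weights.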

Additional observations from a re-analysis of the deposited data

Results flagged for a closer look

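In all, 100 groups of 4 libraries were checked for a library far from the other 3, and 11 were found, where chance gives about 1 in 20 groups.

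Null replicate 1, a low-slope library, stood apart in 6 of them. It had 24.7 CPM of ced-4 (47.3 to 51.5 in the other 3), 62.1 of ced-3 (228 to 254), 61.1 of ced-1 (115.5 to 124), 67.9 of ced-7 (232 to 266), 28.9 of ced-2 (58.3 to 63.6) and 24.8 of unc-73 (50.3 to 54.9). This library also decided the egl-1 call in granulin 2 against the null.

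Granulin 1 replicate 3, also low-slope, had 25.8 CPM of pat-2 (11.97 to 14.3 in the other 3) and 1035 CPM of pgrn-1 (221 to 283). Wild type replicate 4, with 44.8% ribosomal RNA reads, had 36.9 CPM of pgrn-1 (10.7 to 15.03). Wild type replicate 2 had 41.6 CPM of psr-1 (46.2 to 46.9), and granulin 1 replicate 4 had 89.8 CPM of mev-1 (110.2 to 114).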

How the results depend on the processing

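No alternative turned the direction of the called egl-1 difference, and the directions that did turn were of uncalled differences. Without the low-slope libraries egl-1 in granulin 3 minus null turned to -0.49, ced-4 in granulin 3 minus 1 to -0.11, ced-3 in granulin 2 and 3 minus wild type to 0.19 and 0.11, ced-1 in granulin 2 minus wild type to 0.20, and ced-6 in granulin 2 and 3 minus wild type to 0.33 and 0.02. For ced-3 the fit without these libraries kept wild type replicate 4, at 55.3 CPM, where the other wild-type libraries had 287 to 385. The length slope as a covariate turned ced-3 in granulin 3 minus wild type to 0.04. Library quality weights, a fit that stopped before convergence, turned the first 2 to -0.03 and -0.11. On the deposited scale ced-1, ced-6 and ced-2 in granulin 3 minus wild type turned to 0.03, 0.12 and 0.12, where the median of all genes was 0.81. The causes were not tested.

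Counts of called genes among the 10 moved as follows. For any difference the count was 2 with the covariate (ced-2, egl-1) and 3 with the weights (ced-4 as well). For granulin 2 minus null it was 0 on the deposited scale and without the low-slope libraries, 2 with the weights (ced-2, egl-1) and 0 to 1 with 1 library left out. For granulin 2 minus wild type it was 3 with the covariate (ced-2, ced-4, egl-1), 1 with the weights (ced-2) and 0 to 1 with 1 library left out, egl-1 without wild type replicate 2 and ced-2 without replicate 4. For granulin 2 minus 1 it was 4 with the covariate (ced-1 to ced-4), 1 with the weights (ced-2) and 0 to 1 with 1 library left out. With the weights it was 1 for granulin 3 minus null (ced-4) and 1 for granulin 3 minus 2 (egl-1). The other 187 recomputed counts were within 1.5 times the reported ones.

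Same-letter libraries deviated together (r above 0.1) in 8 of 16 pairs (r from -0.6 to 0.58). Libraries of different letters did so as well, with r = 0.67 for null replicate 1 and granulin 2 replicate 2, both low-slope. This check cannot decide whether the letters pair libraries, and the main fit did not pair them. With the letter as a replicate block egl-1 in granulin 2 minus null was 1.95 (adjusted p = 0.0235), still the 1 call among the 10 genes there, unc-73 was 1.67 and not called (adjusted p = 0.119), and 2358 genes in all were called in place of 3408. Depth limits egl-1, with 4 to 340 reads, more than the other 9 genes, with at least 361.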
